A study of Homo sapiens with 24 samples.

Results

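TCF3, TCF4 and TCF12 encode the E proteins of these cells, and their RNA was followed across WT and ID3-knockout (KO) osteosarcoma cells before and after class I histone deacetylase (HDAC) inhibition. The members are the rows of the deposited gene tables that carry these symbols, 3 genes of the 57820 listed. RNA-seq was run on 24 libraries in 8 groups of 3 biological replicates, which the study's figure legends call independent experiments. The p-values weigh each difference against the spread between these libraries. In AID-DIvA cells, a U2OS derivative that carries the AsiSI restriction enzyme fused to an auxin-inducible degron, WT and ID3-KO cells were either untreated or given mocetinostat for 24 h and then fresh medium for 24 h (the recovery groups). In U2OS cells, an established human osteosarcoma line, WT and ID3-KO cells were either untreated or collected after mocetinostat without recovery, as far as the study's methods tell. Mocetinostat inhibits class I HDACs, and its dose in these cultures is not given in the sources used here. Whether a KO line is 1 clone is not given either, so the p-values cannot be taken to cover the spread between KO clones. The treatment field of the 12 AID-DIvA samples contradicts their titles, and the titles were used, so every AID-DIvA treatment direction below rests on the titles. The names of the U2OS libraries also carry the word DivA, and the stage of collection, the cell-line label and the deposit coincide, so their effects on a difference between the AID-DIvA and U2OS sets cannot be told apart.

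E proteins are class I basic helix-loop-helix (bHLH) transcription factors. They bind DNA at E-boxes, either paired with each other or with tissue-restricted class II bHLH factors, and they recruit histone acetyltransferases such as p300. ID proteins have the helix-loop-helix but lack the basic region, so an E protein bound by an ID protein does not bind DNA. TCF3 gives rise to E12 and E47, TCF4 to E2-2 and TCF12 to HEB, factors best known from lymphocyte development, while TCF4 is also needed in plasmacytoid dendritic cells and neurons and TCF12 in mesenchymal and cranial development. The counts are per gene and cannot separate isoforms such as E12 and E47.

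In the annotation of the files (hg19/GRCh37), TCF3 (ENSG00000071564.10) lies on the minus strand of chr19:1609291-1652604, TCF4 (ENSG00000196628.9) on the minus strand of chr18:52889562-53332018 and TCF12 (ENSG00000140262.13) on the plus strand of chr15:57210821-57591479. Their summed exons cover 6061, 22377 and 9446 bases. Because an HDAC inhibitor acts on chromatin at promoters, the 250 bases upstream of 1 start site per gene are shown, the start with the most CpG where RefSeq lists several. The sequences are from RefSeq on GRCh38.p14, a later build than that of the files, and run 5′ to 3′ on the gene's strand. They cover chr19:1652616-1652865 (minus strand) for TCF3, chr18:55589812-55590061 (minus strand) for TCF4 and chr15:56918394-56918643 (plus strand) for TCF12. Capitals mark every GC box, GGGCGG or its reverse complement CCGCCC, the sequence bound by SP1-type factors, and overlapping matches were counted.
TCF3: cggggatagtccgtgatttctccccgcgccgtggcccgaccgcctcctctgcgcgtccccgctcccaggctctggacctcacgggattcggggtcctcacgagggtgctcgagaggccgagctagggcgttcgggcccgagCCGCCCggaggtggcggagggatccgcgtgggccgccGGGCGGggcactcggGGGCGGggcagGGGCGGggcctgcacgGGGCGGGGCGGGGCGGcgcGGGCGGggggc
TCF4: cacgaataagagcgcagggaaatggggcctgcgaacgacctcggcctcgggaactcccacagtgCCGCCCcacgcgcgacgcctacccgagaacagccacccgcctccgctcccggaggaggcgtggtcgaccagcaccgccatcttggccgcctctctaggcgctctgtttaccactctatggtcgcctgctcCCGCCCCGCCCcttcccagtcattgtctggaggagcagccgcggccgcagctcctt
TCF12: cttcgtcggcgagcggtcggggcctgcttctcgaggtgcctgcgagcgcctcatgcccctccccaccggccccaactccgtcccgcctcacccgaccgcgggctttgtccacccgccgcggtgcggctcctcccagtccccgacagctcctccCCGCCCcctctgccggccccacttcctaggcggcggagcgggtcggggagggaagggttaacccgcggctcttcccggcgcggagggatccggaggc

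The TCF3 window held 8 GC boxes and 36 CpG, the TCF4 window 3 and 26, and the TCF12 window 1 and 31. Of all 35116 promoter windows of this length, 42.64% held at least 1 GC box. The E-box CANNTG was in none of the 3 windows shown, which were picked for their CpG, but it was upstream of 5 of the 10 TCF4 starts and 2 of the 5 TCF12 starts, and in 61.82% of all windows. Its forms CACCTG and CAGGTG were upstream of no listed start of the 3 genes and in 17.49% of all windows. A match to these letters describes the window and is not evidence of a bound factor. RefSeq listed 1 start site for TCF3, 5 for TCF12 and 10 for TCF4, and the counts do not tell which of them were in use.

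The libraries held 37878751 to 76906266 counts in the AID-DIvA set and 46285533 to 70692114 in the U2OS set. ID3, the targeted gene, was listed in the ID3-KO libraries, so the knockout did not remove its RNA. On the scale of library-scaled counts (CPM, with the trimmed mean of M-values, TMM), ID3 stood at 48.7, 51.8 and 52.3 in untreated WT AID-DIvA cells against 33.2, 32.6 and 38.8 in untreated KO cells. In untreated U2OS cells ID3 stood at 79.7, 53.9 and 51.6 CPM in WT against 32.1, 29.9 and 29.1 CPM in KO. All 12 KO libraries lay below all WT libraries of the same cell line and treatment. One library, untreated WT U2OS replicate 1, stood apart from its 2 replicates over the whole transcriptome (SD of the log2 difference to each of them 0.44). The E protein differences whose groups include it are given with and without it. Most WT U2OS values of other genes, and the correlations with other genes, are given only with it and may depend on it. Of 9 osteoblast-lineage markers 5 had a mean of at least 1 CPM. COL1A1 (type I collagen) stood at 830 to 2498 CPM and SPARC at 878 to 1532 CPM. RUNX2 (the osteoblast lineage factor) stood at 11.8 to 47.5 CPM, SPP1 at 14.9 to 61.2 CPM and ALPL at 0.616 to 7.01 CPM. COL1A2 reached at most 1.37 CPM, and SP7, IBSP and BGLAP stayed at or below 0.684 CPM. The summed osteoblast-lineage level was 2711 to 4101 CPM in untreated and 1786 to 2626 CPM in treated libraries, and the summed level of 6 lymphocyte markers was 0.889 to 1.89 and 1.70 to 3.52 CPM. Of these 6 only CD3D had a mean of at least 1 CPM, and no other exceeded 0.505 CPM in a library. The summed myeloid and epithelial markers and the endothelial marker CDH5 were likewise higher in every treated than in every untreated library. The part of these shifts in the results below was not tested.

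TCF3 held most of the E protein RNA in every library. Per length, on the TPM scale (transcript level relative to all transcripts of a library), TCF3 ranged from 94.4 to 142, TCF12 from 23.3 to 45.6 and TCF4 from 2.88 to 9.77, and the 3 ranges did not overlap. The sum of the 3 genes ran from 128 to 182 TPM, of which TCF3 made up 65.5 to 82.6%, TCF12 14.4 to 29.04% and TCF4 2.05 to 5.70%. These values rest on 9001 to 18297 counts per library for TCF3, 3256 to 10008 for TCF12 and 989 to 4488 for TCF4. Of the counts of each gene at most 0.363% fell on the opposite strand, and no gene that overlaps a member in the files held more than 13 counts in a library.

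Between the lowest and the highest library the CPM of TCF4 differed 3.66-fold, that of TCF12 2.23-fold and that of TCF3 1.67-fold. TCF4 was highest in untreated WT AID-DIvA cells (66.2 ± 2.17 CPM, SD, n = 3) and next highest in untreated ID3-KO AID-DIvA cells (61.6 ± 2.28 CPM). Untreated WT U2OS (51.1 ± 11.9 CPM) and ID3-KO U2OS (49.2 ± 0.419 CPM) came next and overlapped, followed by the WT (37.6 ± 1.46 CPM) and KO (35.8 ± 4.69 CPM) recovery groups, which also overlapped. The mocetinostat-treated U2OS groups were lowest and overlapped, at 19.6 ± 0.0101 CPM in WT and 19.1 ± 0.848 CPM in KO. The order of the TCF4 group means therefore followed treatment first and cell-line label second. No library of a treated group lay above 40.1 CPM, but untreated WT U2OS replicate 1 (37.4 CPM) lay within the range of the recovery groups.

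TCF12 ran from 134.7 ± 6.84 CPM in untreated ID3-KO AID-DIvA cells, which overlapped the untreated WT AID-DIvA cells (126.6 ± 3.48 CPM), down to 63.7 ± 1.29 CPM in mocetinostat-treated WT U2OS cells. Untreated ID3-KO U2OS cells stood at 115.7 ± 3.19 CPM. The KO recovery (103.2 ± 2.34 CPM), untreated WT U2OS (101.7 ± 22.3 CPM) and WT recovery (97.8 ± 4.68 CPM) groups overlapped in that order. Mocetinostat-treated ID3-KO U2OS cells (72.9 ± 2.04 CPM) lay above the treated WT U2OS cells without overlap. For TCF3 the 6 groups other than mocetinostat-treated U2OS had means between 214.0 ± 13.5 CPM (WT recovery) and 237.6 ± 16.8 CPM (KO recovery), with most neighbours overlapping. The treated U2OS groups were lowest for TCF3 and overlapped, at 185.2 ± 2.07 CPM in WT and 181.7 ± 14.001 CPM in KO.

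**Figure D1:**
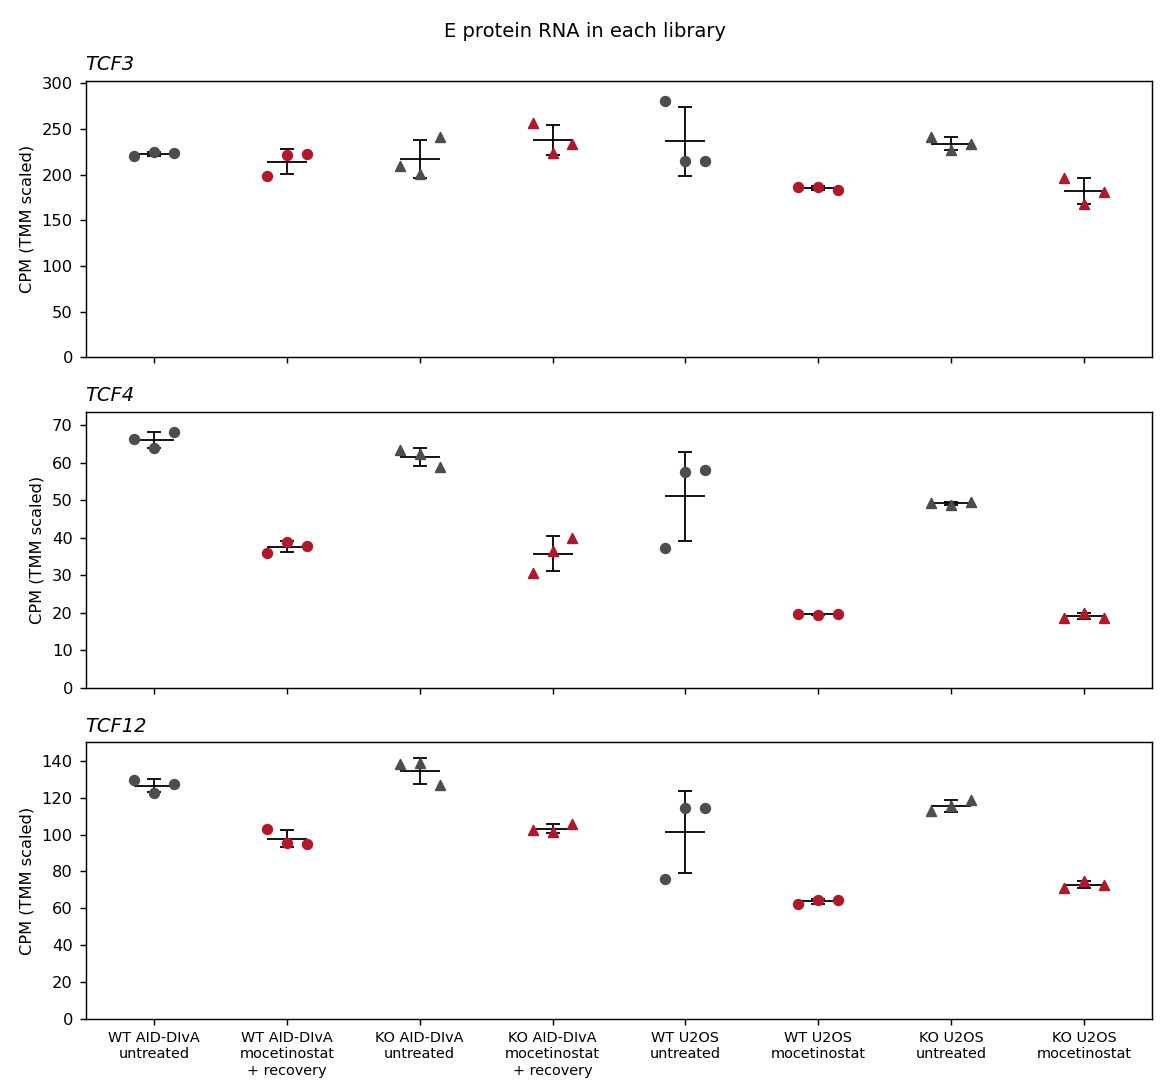
CPM (TMM scaled) of TCF3, TCF4 and TCF12 in each of the 24 libraries, with circles for WT, triangles for ID3-KO, grey for untreated and red for mocetinostat groups, and bars for the mean and SD of 3 libraries. Red libraries of TCF4 and TCF12 lie below the grey ones of their pair throughout, those of TCF3 overlap the grey ones in AID-DIvA and lie below them in U2OS, and untreated WT U2OS replicate 1 (TCF3 279.9, TCF4 37.4 CPM) stands apart from its replicates.

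Mocetinostat with recovery was compared with no treatment in each AID-DIvA genotype, the comparison the study makes to allow for the steady state of each genotype. TCF4 and TCF12 fell in WT and ID3-KO cells, while TCF3 passed the test in neither. In WT cells TCF4, the E2-2 gene, stood at 66.4, 63.9 and 68.2 CPM untreated and at 36.1, 39.0 and 37.8 CPM after recovery. All 3 recovery libraries lay well below all untreated ones. TCF4 fell by 42.3% (log2 difference -0.79, SE 0.051, edgeR adjusted p = 5.0e-08, from the quasi-likelihood test of edgeR, Benjamini-Hochberg adjusted). TCF12, the HEB gene, stood at 129.6, 122.8 and 127.5 CPM untreated and at 103.2, 95.3 and 94.99 CPM after recovery, again without overlap, and fell by 21.6% (log2 difference -0.35, SE 0.045, edgeR adjusted p = 3.0e-05). TCF3, the E12 and E47 gene, stood at 220.2, 224.2 and 224.1 CPM untreated and at 198.4, 221.3 and 222.4 CPM after recovery. The TCF3 groups overlapped, with a log2 difference of -0.04 (95% interval -0.14 to 0.071, edgeR adjusted p = 0.58), and the sign turned (0.022) without WT recovery replicate 1. Of the 20289 genes tested 23.0% were called lower, against 2 of the 3 E protein genes, and 4.47% of genes had a lower log2 difference than TCF4. In bulk RNA, fewer cells that express a gene and less RNA per cell cannot be told apart.

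In ID3-KO AID-DIvA cells TCF4 stood at 63.4, 62.4 and 59.0 CPM untreated and at 30.8, 36.5 and 40.1 CPM after recovery. TCF4 fell by 41.8% (log2 difference -0.78, SE 0.10, edgeR adjusted p = 2.4e-04), close to its fall in WT cells. TCF12 stood at 138.1, 139.0 and 126.8 CPM untreated and at 102.5, 101.3 and 105.8 CPM after recovery, and fell by 23.4% (log2 difference -0.38, SE 0.060, edgeR adjusted p = 7.9e-04). The groups did not overlap for either gene. TCF3 stood at 209.4, 201.1 and 240.7 CPM untreated and at 256.1, 223.4 and 233.3 CPM after recovery, with overlap, and its log2 difference was 0.13 (95% interval -0.056 to 0.31, edgeR adjusted p = 0.25). Without untreated KO replicate 3, the highest untreated library, the TCF3 difference was 0.22 and passed the test (edgeR adjusted p = 0.031). Here 19.9% of 20362 tested genes were called lower and 5.22% of genes had a lower log2 difference than TCF4.

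In U2OS cells collected at the end of mocetinostat treatment all 3 E protein genes fell in both genotypes. In WT cells TCF4 stood at 37.4, 57.6 and 58.2 CPM untreated and at 19.6 CPM in each of the 3 treated libraries. The 3 treated libraries agreed closely, and even the low untreated replicate 1 lay above them. TCF4 fell by 61.6% (log2 difference -1.38, SE 0.16, edgeR adjusted p = 3.0e-04). TCF12 stood at 75.9, 114.4 and 114.8 CPM untreated and at 62.2, 64.5 and 64.4 CPM treated, and fell by 37.3% (log2 difference -0.67, SE 0.15, edgeR adjusted p = 0.0073). TCF3 stood at 279.9, 214.3 and 214.4 CPM untreated and at 186.7, 186.0 and 182.8 CPM treated, and fell by 21.8% (log2 difference -0.35, SE 0.12, edgeR adjusted p = 0.038). Untreated replicate 1 was highest for TCF3 and lowest for TCF4 and TCF12, and no gene's groups overlapped. Without that replicate the log2 differences were -0.21 for TCF3 (edgeR adjusted p = 2.5e-07), -1.57 for TCF4 and -0.85 for TCF12. The TCF3 call was lost when any 1 treated library was left out, with log2 differences of -0.36, -0.36 and -0.34 without treated replicates 1, 2 and 3 and edgeR adjusted p from 0.10 to 0.13, and with library totals as the only scaling (-0.26, edgeR adjusted p = 0.067). Of 21797 tested genes 22.9% were called lower, and 2.38% had a lower log2 difference than TCF4.

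In ID3-KO U2OS cells TCF4 stood at 49.4, 48.7 and 49.5 CPM untreated and at 18.6, 20.1 and 18.7 CPM treated. TCF12 stood at 112.6, 115.5 and 119.0 CPM untreated and at 71.0, 75.1 and 72.6 CPM treated. TCF3 stood at 241.1, 227.2 and 233.3 CPM untreated and at 195.9, 167.9 and 181.3 CPM treated. Every treated library lay below every untreated one for all 3 genes. TCF4 fell by 61.0% (log2 difference -1.36, SE 0.051, edgeR adjusted p = 2.1e-16), TCF12 fell by 36.9% (-0.66, SE 0.044, edgeR adjusted p = 5.8e-12) and TCF3 fell by 22.1% (-0.36, SE 0.050, edgeR adjusted p = 1.1e-06). A large share of all genes moved in this comparison, 34.0% of 21176 being called lower, and 2.72% had a lower log2 difference than TCF4.

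The log2 responses were lower in the U2OS set than after recovery in the AID-DIvA set, where TCF3 had not passed the test. In WT cells the difference between the log2 responses (U2OS minus AID-DIvA) was -0.32 for TCF3 (SE 0.12, edgeR adjusted p = 0.039), -0.59 for TCF4 (SE 0.15, edgeR adjusted p = 0.0022) and -0.33 for TCF12 (SE 0.13, edgeR adjusted p = 0.044). In ID3-KO cells it was -0.50 for TCF3 (SE 0.12, edgeR adjusted p = 0.0018), -0.58 for TCF4 (SE 0.15, edgeR adjusted p = 0.0025) and -0.28 for TCF12 (SE 0.13, edgeR adjusted p = 0.078), the last missing the threshold. TCF4 thus differed between the sets in both genotypes. Of 23087 tested genes 22.6% had a called lower response in U2OS in WT and 21.7% in KO cells. Without untreated WT U2OS replicate 1 the WT differences were -0.18 for TCF3 (edgeR adjusted p = 0.12), -0.78 for TCF4 (6.5e-08) and -0.50 for TCF12 (2.6e-07), and the KO difference of TCF12 was -0.30 (1.6e-04). The TCF3 call in WT cells was lost in 9 and the TCF12 call in 15 of the 24 fits that left out 1 library, whereas the TCF4 calls held in all 24 in both genotypes. Stage, cell-line label and deposit cannot be told apart here.

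**Figure D2:**
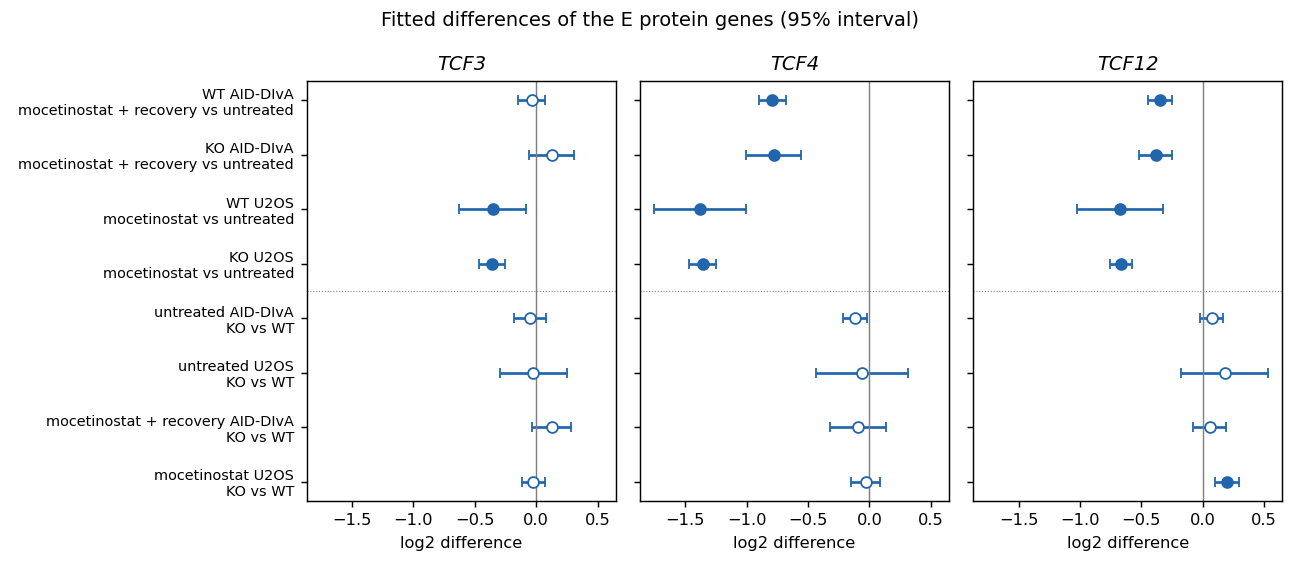
Log2 differences of TCF3, TCF4 and TCF12 with 95% intervals in the 4 treatment comparisons (above the dotted line) and the 4 genotype comparisons (below it), filled where the edgeR adjusted p is below 0.05. TCF4 is furthest below 0 in each treatment comparison (-0.79, -0.78, -1.38 and -1.36), and TCF12 in treated U2OS cells is the 1 filled genotype difference.

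Between ID3-KO and WT cells 1 of the 12 differences in E protein RNA passed the test, that of TCF12 in mocetinostat-treated U2OS cells. In untreated AID-DIvA cells (KO minus WT) the log2 difference was -0.05 for TCF3 (95% interval -0.18 to 0.084), -0.12 for TCF4 (-0.21 to -0.019) and 0.08 for TCF12 (-0.019 to 0.17), with edgeR adjusted p of 0.58, 0.059 and 0.20. The KO libraries all lay below the WT libraries for TCF4, by a small margin, and overlapped them for the others. Of all genes tested 36.7% were called in either direction. Without untreated KO replicate 3 all 3 differences passed the test, at -0.15 for TCF3 (edgeR adjusted p = 4.9e-04), -0.10 for TCF4 (0.027) and 0.10 for TCF12 (0.018), and without untreated KO replicate 2 the TCF3 difference was 0.015. In recovered AID-DIvA cells the differences were 0.13 for TCF3 (-0.032 to 0.29), -0.09 for TCF4 (-0.32 to 0.14) and 0.06 for TCF12 (-0.079 to 0.19), with edgeR adjusted p of 0.24, 0.57 and 0.56 against 23.7% of genes called. The 3 KO recovery libraries lay above the 3 WT ones for TCF3, the nearest at 223.4 and 222.4 CPM. Without KO recovery replicate 1 the TCF4 difference was 0.0074.

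In untreated U2OS cells the KO minus WT differences were -0.02 for TCF3 (-0.29 to 0.25), -0.06 for TCF4 (-0.43 to 0.31) and 0.18 for TCF12 (-0.18 to 0.54), with edgeR adjusted p of 0.92, 0.83 and 0.48 against 15.2% of genes called. All 3 genes overlapped between the genotypes, and without WT replicate 1 only TCF12 did. Without that replicate TCF3 was higher (0.12, edgeR adjusted p = 0.0040) and TCF4 lower (-0.24, edgeR adjusted p = 6.6e-06) in KO cells and TCF12 differed by 0.01 (edgeR adjusted p = 0.83). Without WT replicate 2 or 3 the TCF4 difference was 0.033 or 0.041. In mocetinostat-treated U2OS cells TCF12 was 14.8% higher in ID3-KO than in WT cells (log2 difference 0.20, SE 0.046, edgeR adjusted p = 9.4e-04), and every KO library (71.0 to 75.1 CPM) lay above every WT library (62.2 to 64.5 CPM). Here 19.0% of 21800 tested genes were called higher. The call held when any 1 library was left out but not when all 4 U2OS groups (edgeR adjusted p = 0.28) or all 8 groups (0.14) shared 1 estimate of the spread. TCF3 (-0.02, -0.12 to 0.073, edgeR adjusted p = 0.74) and TCF4 (-0.03, -0.15 to 0.090, 0.73) overlapped between these genotypes, and the TCF3 difference was 0.029 without KO treated replicate 2.

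No response to mocetinostat was shown to differ with genotype for an E protein gene. In AID-DIvA cells the KO response minus the WT response was 0.17 for TCF3 (-0.046 to 0.39, edgeR adjusted p = 0.55), 0.02 for TCF4 (-0.23 to 0.26, 0.97) and -0.03 for TCF12 (-0.18 to 0.13, 0.92), against 1.21% of genes called. In U2OS cells it was -0.0040 for TCF3 (-0.30 to 0.29, edgeR adjusted p = 0.996), 0.03 for TCF4 (-0.34 to 0.40, 0.97) and 0.01 for TCF12 (-0.33 to 0.36, 0.99), against 2.15% of genes called. Without untreated WT U2OS replicate 1 the U2OS values were -0.15 for TCF3 (edgeR adjusted p = 0.14), 0.20 for TCF4 (0.064) and 0.18 for TCF12, the last then passing the test (0.044). Several of these values change sign when another library is left out.

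Untreated AID-DIvA cells held more TCF4 and TCF12 RNA than untreated U2OS cells, and the groups of the same genotype did not overlap. In WT cells the log2 difference (AID-DIvA minus U2OS) was 0.35 for TCF4 (SE 0.11, edgeR adjusted p = 0.010) and 0.29 for TCF12 (SE 0.092, edgeR adjusted p = 0.014), against 18.5% of genes called higher. In KO cells it was 0.31 for TCF4 (SE 0.11, edgeR adjusted p = 0.028) and 0.21 for TCF12 (SE 0.092, edgeR adjusted p = 0.10), against 15.8% called higher. TCF12 in KO cells therefore missed the threshold, and TCF3 differed by -0.11 in WT and -0.12 in KO cells (edgeR adjusted p = 0.33 and 0.34). Without untreated WT U2OS replicate 1 the WT differences were 0.18 for TCF4 (edgeR adjusted p = 0.045), 0.13 for TCF12 (0.040) and 0.04 for TCF3 (0.69), and the KO difference of TCF12 was 0.19 and passed (0.0014). The KO call of TCF4 was lost in 5 of the 24 fits that left out 1 library, those without untreated AID-DIvA KO replicate 1 or 2 and those without any 1 untreated U2OS KO library (0.29 to 0.32).

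ID genes encode the proteins that sequester E proteins, so the summed RNA of ID1, ID2, ID3 and ID4 was set against the summed RNA of the 3 E protein genes, per length (TPM). RNA ratios say nothing of the amounts of protein. In AID-DIvA cells the ratio was 3.70 ± 0.107 (SD, n = 3) in untreated and 6.67 ± 0.176 in recovered WT cells, and 3.71 ± 0.188 in untreated and 6.17 ± 0.161 in recovered KO cells. In U2OS cells it was 4.06 ± 0.747 in untreated and 12.003 ± 0.349 in treated WT cells, and 2.87 ± 0.0742 in untreated and 7.36 ± 0.675 in treated KO cells. Treated libraries lay above untreated ones in all 4 pairs. The KO ratios lay below the WT ratios in untreated and treated U2OS cells and in recovered AID-DIvA cells (5.99 to 6.30 against 6.56 to 6.88), and overlapped them in untreated AID-DIvA cells. The ID sum includes ID3, the targeted gene. ID3 alone over the E protein sum was 1.39 in WT and 0.700 in KO recovered AID-DIvA cells, and 1.19 and 0.507 in treated U2OS cells. ID1 was also lower in KO than in WT treated U2OS cells (log2 difference -0.64, edgeR adjusted p = 1.6e-04). It stood there at 887 against 1436 TPM, and ID3 at 68.2 against 163 TPM. In untreated U2OS cells the ID1 difference did not pass the test (-0.41, edgeR adjusted p = 0.15). In recovered AID-DIvA cells ID1 was higher in KO than in WT cells (0.17, edgeR adjusted p = 0.043). The wide spread of the ratio in the untreated WT U2OS group came from replicate 1, at 4.92 against 3.67 and 3.59 in the others. ID1 held most of the ID family RNA per length and rose in all 4 treatment comparisons (log2 differences 0.60, 0.68, 1.20 and 0.95 in WT AID-DIvA, KO AID-DIvA, WT U2OS and KO U2OS cells). ID4 also rose in all 4 (0.77, 0.73, 1.68 and 2.14), and ID2 rose in U2OS (1.29 in WT, 1.22 in KO) and did not pass the test in AID-DIvA cells (-0.08 and 0.07). ID3 rose in 3 of the 4 (1.24, 0.90 and, in KO U2OS, 0.22), its value in WT U2OS cells being 0.40 (edgeR adjusted p = 0.088) and 0.63 (3.7e-12) without untreated replicate 1. The ID3 call in KO U2OS was lost with 4 or 8 groups in 1 fit (edgeR adjusted p = 0.23 and 0.16) and without untreated replicate 3 (0.19) or treated replicate 1 (0.11).

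**Figure D3:**
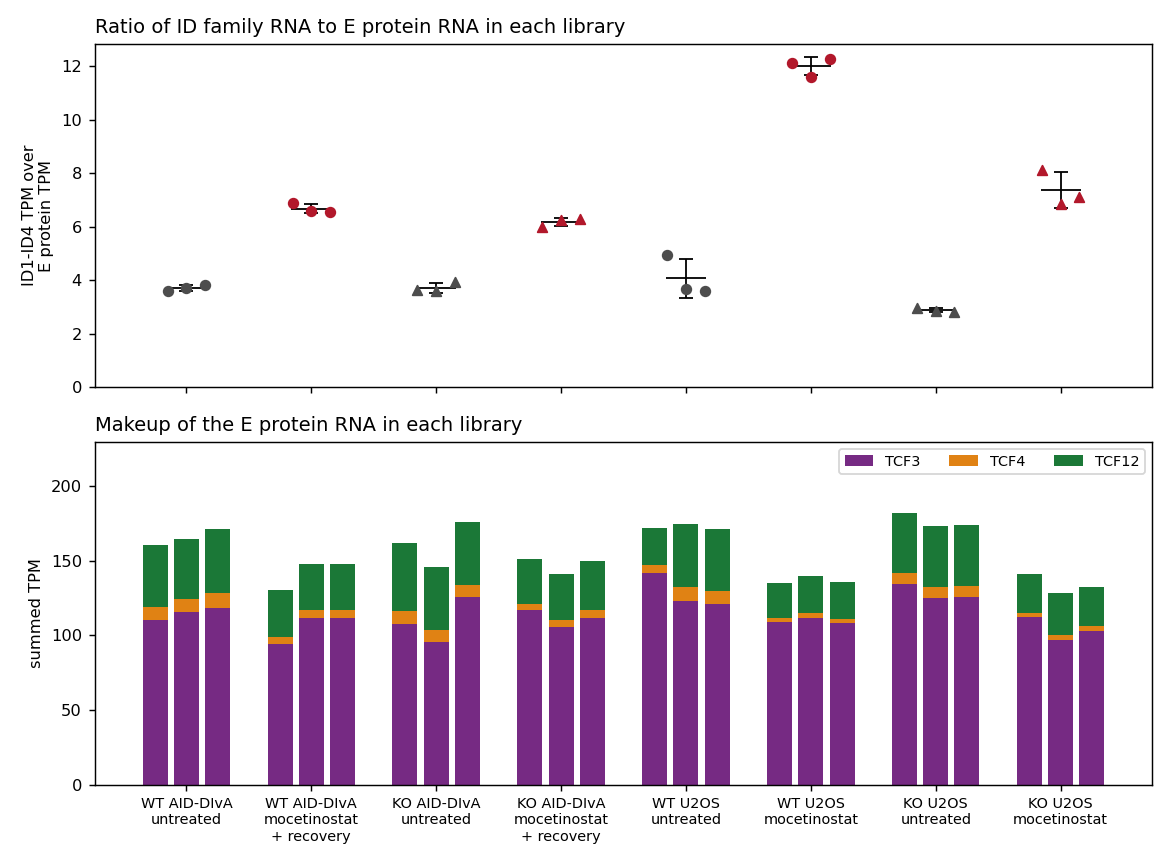
Above, the ratio of summed ID1 to ID4 TPM to summed TCF3, TCF4 and TCF12 TPM in each library (circles WT, triangles ID3-KO, grey untreated, red mocetinostat groups) with the mean and SD of 3 libraries. Below, the summed TPM of the 3 E protein genes in the same order, where TCF3 makes up 65.5 to 82.6% of each bar and the ratio runs from 2.81 to 12.3.

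TCF4 and TCF12 varied together over the 24 libraries more closely than either did with TCF3. Pearson's r of log2 CPM was 0.945 for TCF4 with TCF12, 0.576 for TCF3 with TCF4 and 0.487 for TCF3 with TCF12, and 0.965, 0.662 and 0.688 without untreated WT U2OS replicate 1. These values are descriptions: the libraries fall into clusters by treatment and cell line and share their scaling, so no p is given. Among 14173 genes, those with the most similar log2 CPM to TCF4 were CBX5, NNT and USP13 (each r = 0.987), PBLD (0.986) and TET1 (0.983). For TCF12 they were ARID2 and PBRM1 (0.977), TTF2 and ZMYND11 (0.975) and PHF17 (0.974). For TCF3 they were STK25 (0.964), RPS6KB2 (0.962), AURKAIP1 (0.955), RHOT2 (0.949) and CYC1 (0.947). Likeness over clustered libraries says nothing of shared control.

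**Figure D4:**
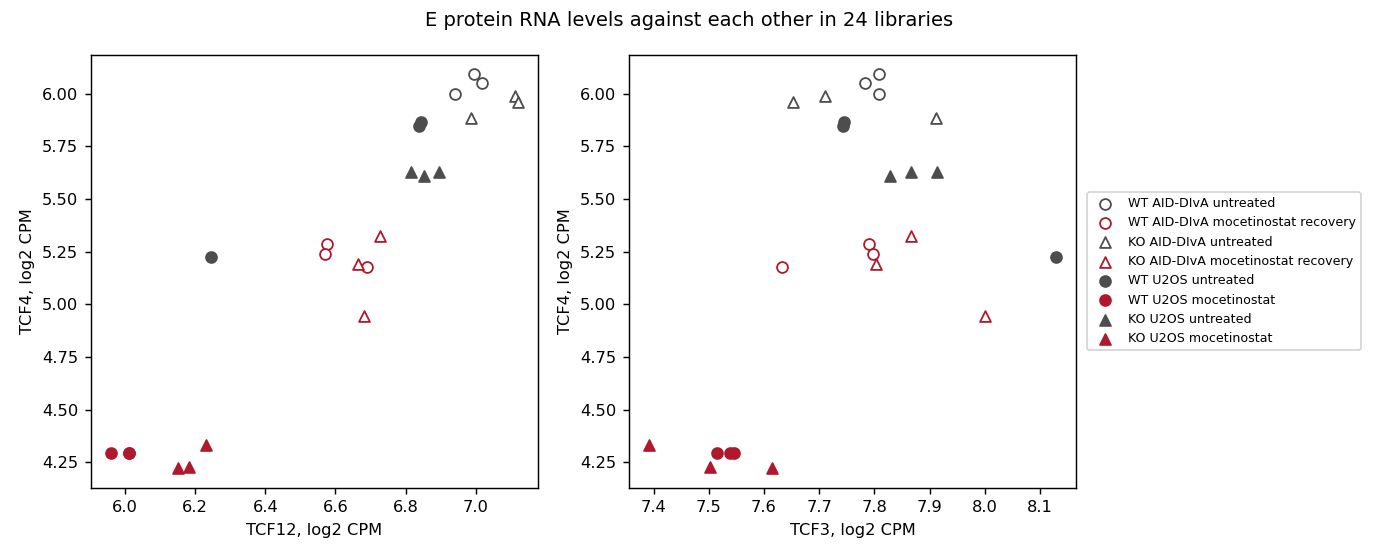
Log2 CPM of TCF4 against that of TCF12 (left) and TCF3 (right), 1 point per library, open symbols for AID-DIvA, filled for U2OS, red for mocetinostat groups. TCF4 and TCF12 lie along 1 line with the treated U2OS libraries at the low end (r = 0.945, n = 24), and the filled grey point off the untreated cluster is WT U2OS replicate 1.

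Class II bHLH factors pair with E proteins and give them tissue-specific targets. Of 47 listed, 46 were found (SCX was not matched), and those that passed the filter on low counts numbered 17 and 16 in WT and KO AID-DIvA and 21 and 22 in WT and KO U2OS cells. In AID-DIvA cells 3 rose and 1 fell in WT and 3 rose and 3 fell in KO cells, where 23.9% and 20.2% of all genes were called higher. In U2OS cells 11 rose and 3 fell in WT and 13 rose and 4 fell in KO cells, where 26.0% and 35.8% were called higher. The shares of all genes called lower were 23.0%, 19.9%, 22.9% and 34.0% in WT AID-DIvA, KO AID-DIvA, WT U2OS and KO U2OS cells. The median log2 difference over the tested members was -0.14, -0.18, 0.92 and 1.06 in these 4 comparisons, beside -0.0005, -0.02, 0.01 and 0.0009 over all genes. Genes such as NEUROD1 passed the filter only through the treated group and so had to differ, and no weight rests on these counts. OLIG2, a factor of the oligodendrocyte lineage, rose in all 4 comparisons (log2 differences 0.74, 0.66, 1.04 and 1.24) from 5.11 to 8.39 CPM in WT AID-DIvA and from 6.89 to 14.1 CPM in WT U2OS cells. BHLHA15 (MIST1, a factor of secretory cells) also rose in all 4 (1.13, 1.46, 1.29 and 0.93), although its levels did not exceed 2.01 CPM. TCF15 (paraxis, a somite factor) rose in U2OS (1.497 and 1.97) and had values of -0.06 and 0.30 in AID-DIvA cells. OLIG1 rose in U2OS (2.05 and 2.25) and fell in KO AID-DIvA cells (-1.43), with -0.49 in WT AID-DIvA. ATOH8 fell in U2OS (-1.58 and -2.41) and KO AID-DIvA cells (-0.58), with -0.29 in WT AID-DIvA. Both OLIG1 and ATOH8 were low. OLIG1 went from 0.687 to 0.241 CPM in KO AID-DIvA cells, the latter on 7 to 20 counts per library. ATOH8 went from 1.25 to 0.234 CPM in KO U2OS cells, the latter on 11 to 20 counts. TWIST2 (a mesenchymal factor) rose in WT AID-DIvA (0.39) and had values of 0.34, 0.46 and 0.10 in the other comparisons, the WT U2OS value becoming a called 0.78 without untreated replicate 1. The TWIST2 call in WT AID-DIvA was lost with DESeq2, a replicate block or 8 groups (edgeR adjusted p = 0.12 for the last) and without untreated replicate 1 or 2 or recovery replicate 1 or 2 (0.30 to 0.40), and TWIST2 in KO AID-DIvA was called without untreated or recovery replicate 3 (0.43 in each case). The ATOH8 call in KO AID-DIvA was lost without untreated or recovery replicate 2 (-0.53 and -0.57), and TCF15 there was called without untreated replicate 3 (0.43). TAL1, the haematopoietic partner of E proteins, passed the test in none of the 4 (-0.14, -0.05, -0.25 and -0.13), although the WT AID-DIvA value was a called -0.28 without recovery replicate 1.

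The cofactors include acetyltransferases, LIM-domain adaptors and corepressors that bind E proteins or their partners. Of 9 listed 8, 7, 9 and 8 were tested, of which 0, 0, 1 and 3 rose and 4, 2, 3 and 5 fell in WT AID-DIvA, KO AID-DIvA, WT U2OS and KO U2OS cells, with medians of -0.22, -0.16, -0.33 and -0.61 beside -0.0005, -0.02, 0.01 and 0.0009 over all genes. The members called lower made up 50%, 28.6%, 33.3% and 62.5% of those tested, beside 23.0%, 19.9%, 22.9% and 34.0% of all genes, and with 7 to 9 members tested 1 gene moves such a share by over 10 percentage points. CREBBP, the acetyltransferase CBP, fell in all 4 (-0.36, -0.27, -0.92 and -1.11), from 189.8 to 145.7 CPM in WT AID-DIvA and from 187.8 to 87.0 CPM in KO U2OS cells. EP300, which encodes p300, fell in WT AID-DIvA (-0.20) and KO U2OS cells (-0.64), and its values in KO AID-DIvA and WT U2OS were -0.16 and -0.35. Without untreated WT U2OS replicate 1 the WT U2OS difference of EP300 was -0.66 and passed the test. With all 8 groups in 1 fit the calls of CREBBP in KO AID-DIvA (edgeR adjusted p = 0.12) and EP300 in WT AID-DIvA (0.39) were lost. EP300 in KO AID-DIvA passed in 3 of 8 alternative settings and without recovery replicate 1 (-0.20). LMO4, a LIM-only adaptor, fell in all 4 (-0.23, -0.54, -0.55 and -0.57). LDB1, the LIM-domain-binding scaffold, fell in U2OS (-0.67 in each genotype) and had values of -0.12 (a called -0.15 without WT recovery replicate 3) and 0.01 in AID-DIvA cells. LMO2, a LIM-only partner of TAL1, rose in U2OS (2.09 and 2.62, from 0.961 to 4.08 CPM in WT) and had values of -0.40 and -0.08 in AID-DIvA. CBFA2T2, an ETO-family corepressor, fell in WT AID-DIvA (-0.15) and rose in KO U2OS cells (0.26), with -0.04 in KO AID-DIvA and 0.26 in WT U2OS. The CBFA2T2 call in WT AID-DIvA was lost in 3 of 8 alternative settings (edgeR adjusted p up to 0.18) and without untreated replicate 1 or 2 or recovery replicate 2 (-0.12, -0.16 and -0.16), and that in KO U2OS with 4 groups in 1 fit (0.057).

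Genes described as E protein targets in other cells moved in both directions. Of 16 listed 10, 10, 11 and 11 were tested, of which 4, 3, 7 and 8 rose and 2, 3, 1 and 2 fell in the same order of comparisons, with medians of 0.18, 0.13, 0.51 and 0.42 beside -0.0005, -0.02, 0.01 and 0.0009 over all genes. The shares of tested members called higher were 40.0%, 30.0%, 63.6% and 72.7%, beside 23.9%, 20.2%, 26.0% and 35.8% of all genes, and those called lower 20.0%, 30.0%, 9.09% and 18.2%, beside 23.0%, 19.9%, 22.9% and 34.0%. In each U2OS treatment comparison 11 targets passed the filter on low counts, against 10 between the untreated U2OS genotypes. A target that passes only through the treated group has to differ, so no weight rests on these shares. CDKN1A, the CDK inhibitor p21, rose in all 4 (1.21, 0.94, 0.92 and 0.95), from 158.6 to 361.9 CPM in WT AID-DIvA and from 268.3 to 510.2 CPM in WT U2OS cells. FOXO1 rose in WT AID-DIvA (0.38) and U2OS cells (1.82 and 1.89), with 0.20 in KO AID-DIvA. PAX5, the B-cell identity factor, rose in U2OS (3.11 and 3.35, from 0.941 to 8.15 CPM in WT) and KO AID-DIvA cells (0.73), with 0.09 in WT AID-DIvA. The PAX5 call in KO AID-DIvA was lost in 5 of the 6 fits that left out 1 library, all but that without untreated replicate 1 (0.53 to 0.83). EBF1, an early B-cell factor, fell in AID-DIvA (-1.06 and -1.12) and rose in KO U2OS cells (0.27), with 0.14 in WT U2OS and -0.026 there without untreated replicate 1. The EBF1 call in KO U2OS was lost with DESeq2 and in fits over 4 or 8 groups (edgeR adjusted p = 0.15 and 0.11), and without untreated replicate 1 or 2 or treated replicate 2 or 3 (0.21 to 0.26). IL7R, the interleukin-7 receptor, fell in U2OS (-0.97 and -1.52) and had values of 0.28 and 0.07 in AID-DIvA. CDKN1C, the CDK inhibitor p57, fell in AID-DIvA (-0.59 and -0.46) and KO U2OS cells (-0.29, a call lost with 4 groups in 1 fit, edgeR adjusted p = 0.090), with -0.34 in WT U2OS. SOCS3, a cytokine signalling inhibitor, rose in U2OS (0.34 and 0.22), with -0.12 and -0.23 in AID-DIvA, the latter a called -0.29 without KO recovery replicate 1.

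**Figure D5:**
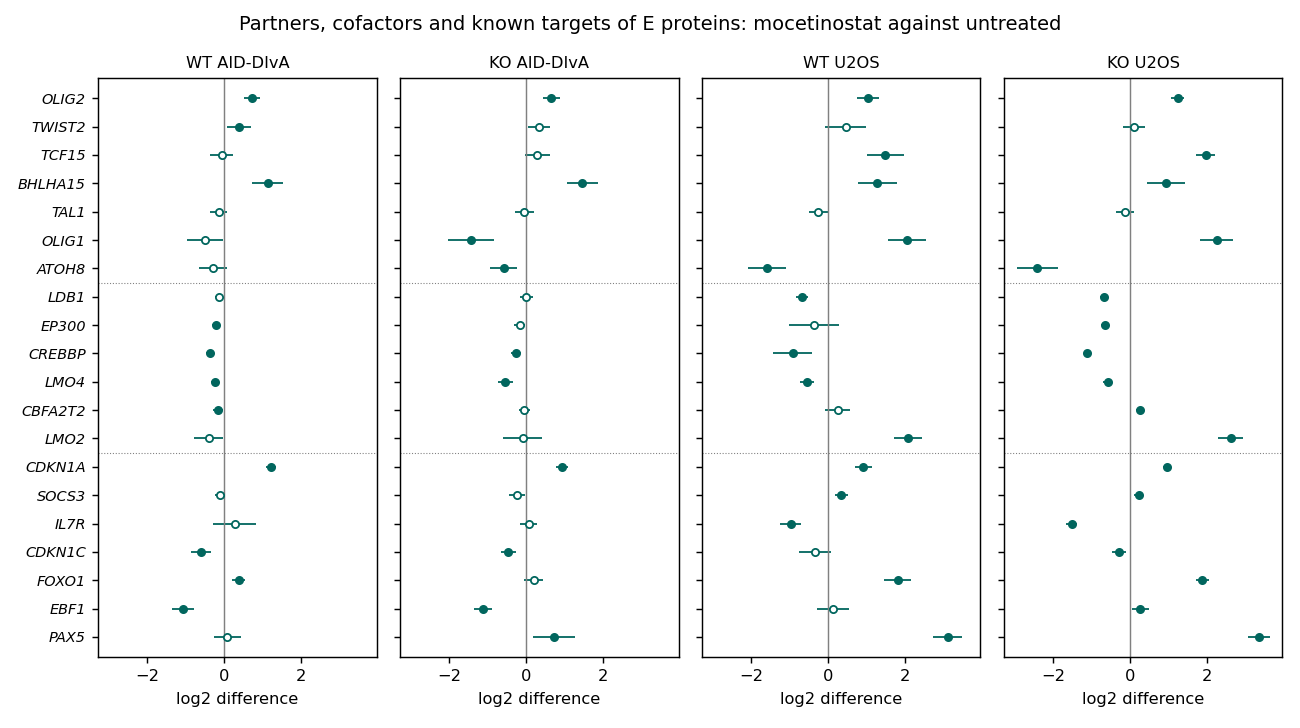
Log2 difference of mocetinostat groups against untreated groups for the named class II bHLH partners (top block), cofactors (middle block) and genes described as E protein targets in other cells (bottom block) in the 4 treatment comparisons, with 95% intervals and filled points where the edgeR adjusted p is below 0.05. CREBBP and LMO4 are below 0 and OLIG2, BHLHA15 and CDKN1A above 0 with filled points in all 4 panels.

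Over the 4 genotype comparisons targets and class II factors were called in both directions, and LMO4 was the only cofactor called, lower in 3 of the 4. Of the targets tested in untreated AID-DIvA, untreated U2OS, recovered AID-DIvA and treated U2OS cells, 4, 0, 2 and 1 were called higher and 5, 2, 5 and 4 lower in KO cells, of 10, 10, 10 and 11. Of the class II factors 2, 1, 1 and 4 were called higher and 1, 1, 2 and 4 lower, of 19, 18, 16 and 22, and of the cofactors 0 higher and 1, 0, 1 and 1 lower, of 8, 9, 7 and 8. Of all genes 18.1%, 8.63%, 11.1% and 19.0% were called lower. Called higher were 3793 of 20441, 1352 of 20621, 2537 of 20100 and 4133 of 21800 genes tested, in the same order. CDKN1C was higher in KO than in WT AID-DIvA cells, at 5.88 against 3.59 CPM in untreated (log2 difference 0.69) and 4.29 against 2.35 CPM in recovered cells (0.84). In U2OS cells its means were closer, at 6.69 CPM in KO against 6.34 CPM in WT untreated cells and 5.45 against 5.04 CPM in treated cells. Over the 3 lists, TAL1 and SOCS3 were called lower and PTF1A called higher (1.04 to 2.55) in KO cells in all 4 comparisons, while CDH1, IL7R, LMO4 and RAG1 were called lower and GFI1 called higher in 3. These genes were named after their values were seen, so that their directions are a description. CDH1 stood at 0.165 to 1.98 CPM over all libraries, and the levels of PTF1A, RAG1 and GFI1 are not given. A low gene can pass the filter on low counts only through the group where it is higher. No weight therefore rests on the calls of CDH1, PTF1A, RAG1 and GFI1. TAL1 was lower in KO than in WT cells in all 4 genotype comparisons, with log2 differences of -0.73 in untreated AID-DIvA (edgeR adjusted p = 8.8e-06), -0.71 in untreated U2OS (0.0045), -0.62 in recovered AID-DIvA (0.0059) and -0.58 in treated U2OS cells (7.1e-05). Its mean was 6.74 CPM in untreated WT and 4.12 CPM in untreated KO AID-DIvA cells. SOCS3 was lower in all 4 as well, at -0.37 (edgeR adjusted p = 2.5e-04), -0.68 (0.0011), -0.47 (0.0040) and -0.79 (2.7e-12) in the same order. For both genes every call held when any 1 library was left out. LMO4 was lower in 3 of the 4 (-0.35, -0.65 and -0.21 in untreated AID-DIvA, recovered AID-DIvA and treated U2OS cells), with -0.20 in untreated U2OS (edgeR adjusted p = 0.14).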

How the data were processed

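RNA-seq gene tables of 24 libraries were analysed. Per the study's methods, total RNA was prepared with a stranded kit, sequenced paired-end, aligned to hg19/GRCh37 with STAR and counted per gene with featureCounts. The deposited tables hold raw counts per gene from either strand and from each strand, and the authors' TPM values; the counts from either strand were tested, and TPM was used to compare levels between genes. Other deposited columns were not used.

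Levels are CPM with TMM factors over all 24 libraries. Differences were fitted with edgeR 4.0.16 (R 4.3.3, limma 3.58.1) by its quasi-likelihood test on genes kept by filterByExpr, with Benjamini-Hochberg adjustment over all genes tested and a threshold of 0.05. Treatment and genotype comparisons used the 6 libraries concerned, interactions the 12 libraries of a cell line, and comparisons between cell lines all 24. SEs were derived from the fold change and the F statistic, and 95% intervals from the fit's degrees of freedom. The fit was tested on simulated data. DESeq2 1.42.0, its size factors alone, no low-count filter, reverse-strand counts, shared fits over 4 or 8 groups, a replicate block and leaving out each library were tried. Scaling by library totals alone, and the correlations without untreated WT U2OS replicate 1, were added after seeing the data. Counts per library (37878751 to 76906266) limit the precision of low genes. Intervals cover the spread between libraries.

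The members and the lists of partners, cofactors and targets were chosen with earlier results of these data known. Named from each list were the 5 genes with the highest mean TPM and, in each treatment comparison, the called gene with the largest rise and the one with the largest fall among genes with a mean of at least 1 CPM. The 5 genes most like each member were taken by Pearson's r of log2 CPM. AID-DIvA groups followed the sample titles. Same-numbered replicates did not deviate together in every pair of any comparison (r from -0.39 to 0.27), so the numbers were not taken to pair the samples. Figures were drawn with matplotlib 3.10.9 in Python 3.11.15.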

Additional observations from a re-analysis of the deposited data

Results flagged for a closer look

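The mocetinostat response (log2 difference, treated against untreated) differed between the U2OS set, collected at the end of treatment, and the AID-DIvA set, collected after recovery, by the test of the difference itself (edgeR, Benjamini-Hochberg adjustment over 23087 genes). In WT cells the response in U2OS minus that in AID-DIvA was -0.32 for TCF3 (SE 0.12, edgeR adjusted p = 0.039), -0.59 for TCF4 (SE 0.15, edgeR adjusted p = 0.0022) and -0.33 for TCF12 (SE 0.13, edgeR adjusted p = 0.044). In ID3-KO cells it was -0.50 for TCF3 (SE 0.12, edgeR adjusted p = 0.0018) and -0.58 for TCF4 (SE 0.15, edgeR adjusted p = 0.0025). Without untreated WT U2OS replicate 1 the WT value was -0.18 for TCF3 (edgeR adjusted p = 0.12), -0.78 for TCF4 and -0.50 for TCF12. A lower response in U2OS was called for 22.6% of all genes in WT and 21.7% in ID3-KO cells, and stage of collection, cell-line label and deposit cannot be told apart.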

How the results depend on the processing

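The falls of TCF4 and TCF12 in all 4 treatment comparisons, and of TCF3 in KO U2OS cells, kept their direction and call under every alternative and left-out library. Smaller differences did not, and depth limits only the low partner genes; with 3 libraries a group, a spread set by 1 library moves calls. Where no cause is given below, it was not tested.

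With DESeq2, its size factors or no filter on low counts the U2OS interaction of TCF3 became 0.0023, 0.0023 and 0.013. Without the filter the KO response difference of TCF12 (-0.28) and its untreated KO line difference (0.22) passed the test. The higher TCF12 of treated KO U2OS cells lost its call in fits over 4 groups (0.19) and 8 groups (0.20), which share 1 spread. With library totals as the only scaling, calls were lost for TCF3 in WT U2OS (-0.26), the WT response differences of TCF3 (-0.21) and TCF12 (-0.22), and the untreated line differences of TCF12 in WT (0.23) and TCF4 in KO (0.25); this scaling moved the median of all genes to 0.116 and 0.148 in the WT and KO response differences. Of other genes, ID4 (untreated AID-DIvA, KO against WT) turned to 0.012 with 8 groups and LDB1 in KO AID-DIvA to -0.0092 with library totals.

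Levels moved by more than their SD with library totals for TCF3 (untreated WT AID-DIvA 214.9, treated WT U2OS 200.5 CPM), TCF4 (untreated WT AID-DIvA 63.8, untreated KO AID-DIvA 58.9, treated WT U2OS 21.2, treated KO U2OS 20.5 CPM) and TCF12 (untreated WT AID-DIvA 122.1, KO recovery 97.4, treated WT U2OS 69.0, treated KO U2OS 77.9 CPM). They did so with size factors for TCF4 (treated WT U2OS 19.7 CPM) and with reverse-strand counts for TCF3 (216.2 and 179.8 CPM in untreated WT AID-DIvA and treated WT U2OS), TCF4 (19.1 and 48.0 CPM in treated WT and untreated KO U2OS) and TCF12 (100.3 and 62.0 CPM in KO recovery and treated WT U2OS). The ID to E protein ratio by summed CPM, not per length, was 0.637, 1.24, 0.624 and 1.12 in untreated WT, recovered WT, untreated KO and recovered KO AID-DIvA cells and 0.736, 2.25, 0.503 and 1.36 in untreated WT, treated WT, untreated KO and treated KO U2OS cells.

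Leaving out 1 library at a time gave these ranges. For TCF3 they were -0.070 to 0.022 (WT AID-DIvA treatment), 0.061 to 0.22 (KO AID-DIvA treatment), -0.43 to -0.21 (WT U2OS treatment), -0.15 to 0.015, -0.090 to 0.12 and -0.075 to 0.029 (KO against WT in untreated AID-DIvA, untreated U2OS and treated U2OS), -0.15 to 0.066 (U2OS interaction), -0.39 to -0.18 (WT response difference) and -0.18 to 0.042 (untreated WT lines). For TCF4 they were -0.14 to -0.094, -0.24 to 0.041 and -0.17 to 0.0074 (KO against WT in untreated AID-DIvA, untreated U2OS and recovered AID-DIvA), -0.057 to 0.12 and -0.073 to 0.20 (AID-DIvA and U2OS interactions) and 0.29 to 0.34 (untreated KO lines). For TCF12 they were 0.054 to 0.10 (untreated AID-DIvA, KO against WT), -0.056 to 0.0072 and -0.077 to 0.18 (AID-DIvA and U2OS interactions), -0.50 to -0.23 and -0.31 to -0.25 (WT and KO response differences) and 0.18 to 0.24 (untreated KO lines). Other genes that changed sign were TCF15 in WT AID-DIvA (-0.14 to 0.031), LMO2 (-0.26 to 0.10), LDB1 (-0.045 to 0.063) and TAL1 (-0.11 to 0.021) in KO AID-DIvA, EBF1 in WT U2OS (-0.026 to 0.24), TWIST2 in KO U2OS (-0.058 to 0.18), ID4 (-0.065 to 0.083) and ID1 (-0.040 to 0.14) in untreated and ID4 (-0.16 to 0.032) in recovered AID-DIvA KO against WT, ID4 in the AID-DIvA interaction (-0.16 to 0.040), ID2 in the U2OS interaction (-0.16 to 0.00053) and ID1 between untreated WT lines (-0.24 to 0.12).

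The replicate numbers did not pair the samples. A replicate block gave TCF12 a called untreated KO line difference of 0.36 and turned that of ID3 to -0.10, and it changed no other call of an E protein gene. It moved the genes called in the AID-DIvA interaction from 258 to 157 and in the recovered KO against WT comparison from 4759 to 3152. The AID-DIvA interaction held 466 calls with DESeq2 and 613 without the filter, and the U2OS interaction 488 in the main fit, 917 with DESeq2, 775 without the filter and 794 with 8 groups. With 4 and 8 groups the KO against WT calls were 5658 and 6749 rather than 3132 in untreated U2OS and 4389 and 5145 rather than 8267 in treated U2OS cells. Counts of called list members moved by more than 1.5 times for class II factors lower in WT AID-DIvA (3 with reverse-strand counts, 1 otherwise) and, among shared fits, in 7 further counts of 1 to 5 genes.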
